A study of Homo sapiens with 6 samples.

Results

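The genes described here were the transcripts of the vascular endothelial growth factor (VEGF) axis in the established human ovarian cancer line OVCAR5, and were chosen by symbol. They were the ligands VEGFA, VEGFB, VEGFC and PGF, the receptor tyrosine kinases FLT1, KDR and FLT4, the neuropilins NRP1 and NRP2, and the semaphorin SEMA3C. All 10 were found among the 60649 gene rows of the count table. OVCAR5 cells had been transduced with lentivirus carrying METTL3, the catalytic subunit of the m6A RNA methyltransferase, or with the empty vector, and both stable lines had been selected with puromycin. Poly(A) RNA was sequenced from 3 METTL3-overexpressing and 3 vector libraries, and the labels name no drug treatment for either group apart from the selection. One label field names the controls as parental cells instead. Neither the labels nor the methods say whether a line was 1 clone, or whether replicates came from separate cultures, so p-values measure only the spread between these libraries. Vector replicate 1 and METTL3-overexpressing replicate 1 stood apart, being the lowest or highest library for more genes than any other library.

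VEGF ligands are secreted dimers that bind receptor tyrosine kinases, mostly on endothelial cells, and drive the growth of blood and lymphatic vessels. VEGFA signals mainly through KDR (VEGFR2), whereas VEGFB and PGF bind FLT1 (VEGFR1) and VEGFC binds FLT4 (VEGFR3). Neuropilins have no kinase of their own. They serve as co-receptors for VEGF ligands and, with plexins, as receptors for class 3 semaphorins, which are guidance cues for axons and vessels. Ovarian cancers are known as a source of VEGFA, and its blockade is used as a treatment.

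The tumor cells expressed both neuropilins but none of the 3 VEGF receptor kinases. Levels per length are given in TPM, the counts per exonic base scaled to the same total in each library. A gene was taken as expressed at 1 TPM or more in all 6 libraries, and 6 of the 10 genes met this. They were VEGFA, VEGFB, PGF, NRP1, NRP2 and SEMA3C. Among 19942 protein-coding genes of the table, 60.8% met the same limit. The receptors FLT1, KDR and FLT4 together held 77 counts over the 6 libraries, and no receptor exceeded 0.0451 TPM in a library.

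FLT1 (ENSG00000102755.12, chromosome 13, 28300346 to 28495145) had 0, 10 and 12 counts with METTL3 and 6, 14 and 4 counts with the vector (replicates 1, 2 and 3). All 5 of its nonzero counts were even, as were 67.6% to 70.5% of low counts (1 to 20) per library, so that these counts may stand for fewer sequenced fragments. KDR (ENSG00000128052.10, chromosome 4, 55078481 to 55125595) had 2, 0 and 0 counts with METTL3 and 1, 3 and 0 with the vector. FLT4 (ENSG00000037280.16, chromosome 5, 180601506 to 180649624) had 4, 3 and 4 counts with METTL3 and 0, 4 and 10 with the vector. A floor of 3 counts corresponds to at most 0.0104 TPM for FLT1, 0.0207 TPM for KDR and 0.0148 TPM for FLT4, for counting error only. KDR thus lay at or under this floor in every library, and FLT4 near or under it except for the 10 counts of vector replicate 3. The counts of FLT1 as given exceeded the floor in its 5 nonzero libraries, at no more than 0.0442 TPM. All 3 receptors were far under 1 TPM in both groups, and no fold change is given for them. VEGFC (ENSG00000150630.4, chromosome 4, 176683538 to 176792922), the main ligand of lymphatic growth, was also nearly silent, with 11, 5 and 0 counts with METTL3 and 9, 0 and 0 with the vector. The highest VEGFC level was 0.173 TPM, and it was at 0 in 3 libraries. These 4 genes did not pass the filter on low counts and were not tested in the main fit on all 6 libraries. Some of them entered alternative fits, and none passed there.

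**Figure D1:**
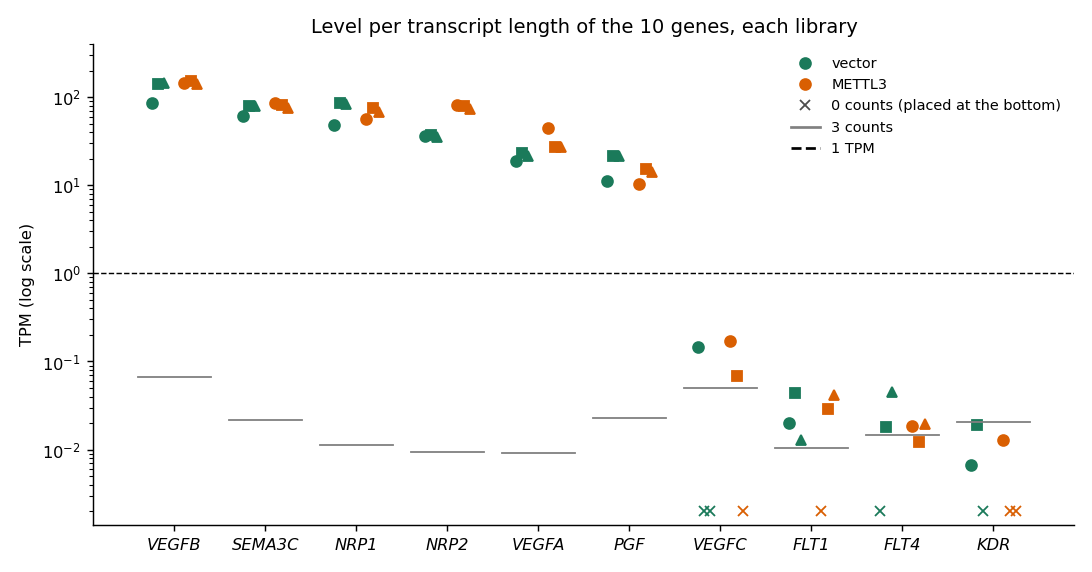
Level of each of the 10 genes in TPM on a log scale (vertical axis) by gene, with 1 point per library, colours for the group and shapes for the replicate number (circle 1, square 2, triangle 3). The dashed line marks 1 TPM, grey bars mark 3 counts, and crosses at the bottom mark libraries with 0 counts. VEGFB, SEMA3C, NRP1, NRP2, VEGFA and PGF lie above 10 TPM in every library, and VEGFC, FLT1, FLT4 and KDR lie under 0.2 TPM.

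The order of the expressed genes per length was VEGFB, SEMA3C, NRP1, NRP2, VEGFA and PGF, with means over the 6 libraries of 135.1, 77.1, 69.0, 57.1, 27.2 and 15.6 TPM. VEGFB was above SEMA3C in 6 of 6 libraries, by a ratio of 1.41 to 1.87. SEMA3C and NRP1 could not be ordered, since SEMA3C was higher in 4 of 6 libraries. NRP1 and NRP2 had an order that differed by group, with NRP1 higher in the 3 vector libraries and NRP2 in the 3 METTL3-overexpressing libraries. NRP2 was above VEGFA in 6 of 6 libraries, and in 2 of 6 with the lengths of canonical transcripts. VEGFA exceeded PGF in every library, by a ratio of 1.02 to 4.36. The order depends on the length assigned to a gene. These TPM use the 14431 bases of all annotated VEGFA exons, retained introns included, whereas the canonical VEGFA transcript has 3609 bases. With canonical lengths, which were chosen after the values were seen, the mean of VEGFA was 58.7 TPM, that of VEGFB 79.5 TPM, and that of SEMA3C 52.0 TPM, below NRP1 in all libraries.

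The promoters of NRP2, the member with the clearest difference between the groups, and of KDR, a silent receptor, are shown side by side. They are the 250 bases before the RefSeq start site (GRCh38.p14), 5′ to 3′ on the strand of the gene. NRP2 lies on the forward strand at chr2:205682251-205682500 and KDR on the reverse strand at chr4:55125596-55125845. Capitals mark the GC box GGGCGG or its reverse complement CCGCCC, which is bound by SP1. The first and second GC boxes of NRP2 overlap by 1 base.
NRP2: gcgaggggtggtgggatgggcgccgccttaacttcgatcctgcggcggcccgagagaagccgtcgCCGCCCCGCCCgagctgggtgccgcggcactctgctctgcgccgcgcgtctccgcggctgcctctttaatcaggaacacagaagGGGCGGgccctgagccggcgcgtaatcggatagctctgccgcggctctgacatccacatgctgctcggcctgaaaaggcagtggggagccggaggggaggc
KDR: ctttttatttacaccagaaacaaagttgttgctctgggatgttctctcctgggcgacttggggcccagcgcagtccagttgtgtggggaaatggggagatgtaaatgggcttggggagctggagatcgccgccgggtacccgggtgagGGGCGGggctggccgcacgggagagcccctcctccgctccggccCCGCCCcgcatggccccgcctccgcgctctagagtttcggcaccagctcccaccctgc
The NRP2 window held 3 GC boxes and the KDR window 2, whereas 42.6% of the 35116 promoter windows of the table held at least 1. The expressed and the silent gene both carry these letters. The RefSeq start of NRP2 lies inside the GENCODE gene, which begins further upstream. Neither window holds the hypoxia response core ACGTG (18.5% of windows) or the AP-1 motif TGACTCA (4.2% of windows), both searched on the 2 strands. The G and C content was 70.0% for NRP2 and 65.2% for KDR. VEGFB, VEGFC and FLT1 each had 1 window in the table, PGF and SEMA3C had several, and VEGFA, FLT4 and NRP1 had no entry.

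Total counts ranged from 96633925 to 125463386 per library. METTL3 itself checked the labels. Its level was 152.4, 165.5 and 175.3 CPM (read counts scaled to library size with TMM factors) in the METTL3-overexpressing libraries and 80.6, 68.6 and 71.6 CPM in the vector libraries, given here and throughout in the order of replicates 1, 2 and 3. The groups did not overlap. The log2 fold change was 1.16 (standard error, SE, 0.117, edgeR quasi-likelihood test, p adjusted by Benjamini-Hochberg over 22038 genes = 0.072).

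To ask which VEGF axis transcripts differ with METTL3 overexpression, the 6 expressed genes were compared between the groups in the same fit. None of the 6 passed an adjusted p-value of 0.05, against a background of 0% of all tested genes. At an unadjusted p-value under 0.05 there were 2 of the 6, NRP2 and VEGFA, both higher with METTL3, against 8.3% of all genes in either direction (1830 of 22038) and 4.4% in that direction. These 2 were also the genes whose CPM did not overlap between the groups, as was the case for 17.4% of all genes in either direction and 8.47% with METTL3 higher. DESeq2 on all 6 libraries called 1 of the 6, NRP2, against 1.27% of all genes (280 genes). The study also used DESeq2, and its paper reports many more genes for METTL3 against vector. The calls given here are thus not those of the study, and the reason for the difference was not tested. With low-count genes kept, edgeR called NRP2 and VEGFA, against 1.3% of all genes, and without vector replicate 1 it called NRP2, against 1.62%. In the fit with low-count genes kept, the SEs of NRP1, SEMA3C, VEGFA and NRP2 all lay between 0.151 and 0.153. They thus did not follow the spread of each gene. The direction differed among members. NRP2, VEGFA, VEGFB and SEMA3C had positive fold changes and NRP1 and PGF negative ones, with a median log2 fold change of 0.14 against -0.02 over all genes. In bulk RNA, a change in RNA per cell and a change in the share of cells that express a gene cannot be told apart.

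**Figure D2:**
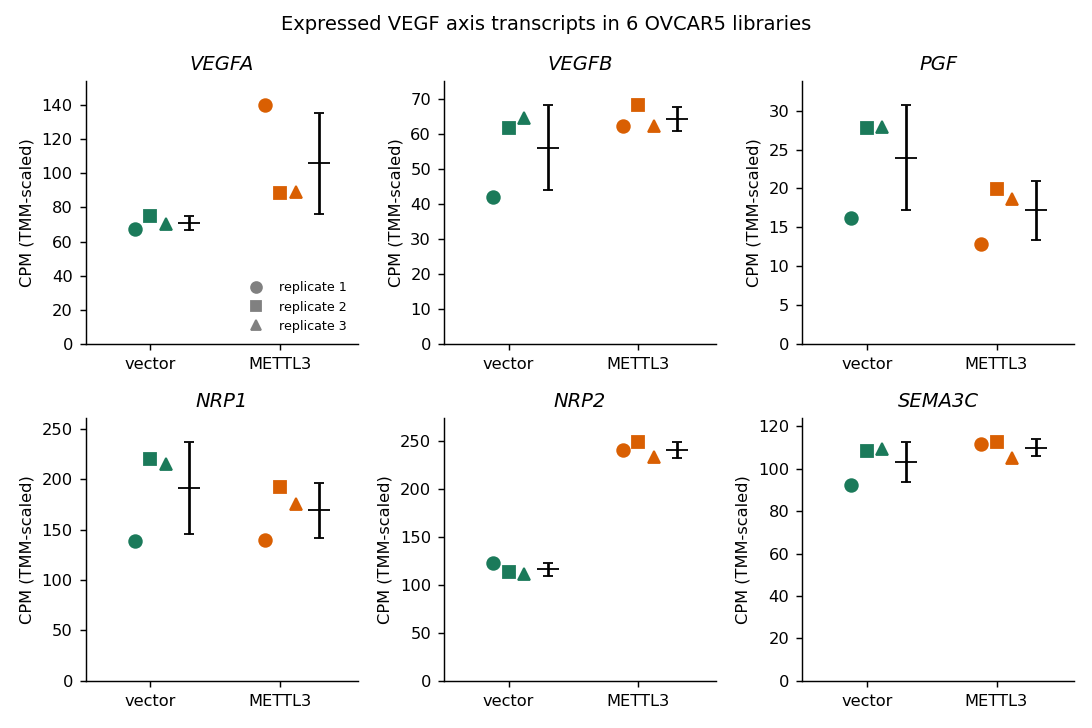
CPM (vertical axis, from 0) of the 6 expressed genes in the vector and METTL3-overexpressing libraries, with 1 point per library, shapes for the replicate number, and a bar with the mean and SD of 3 libraries beside each group. NRP2 separates at 233.4 to 249.8 against 111.5 to 123.4 CPM, VEGFA at 88.5 to 140.0 against 67.2 to 75.2 CPM, and the other genes overlap.

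Among the neuropilins, NRP2 (ENSG00000118257.17, chromosome 2, 205681990 to 205798133, forward strand), known as a co-receptor of VEGFC and a receptor of SEMA3C and SEMA3F, was higher with METTL3 in every library. Its level was 241.1, 249.8 and 233.4 CPM with METTL3 and 123.4, 114.1 and 111.5 CPM with the vector. The lowest METTL3 library thus lay well above the highest vector library, and replicate 1 stood with its group. The means were 241.4 ± 8.20 and 116.3 ± 6.29 CPM (SD, n = 3 each), a fold of 2.08. The log2 fold change was 1.05 (SE 0.107, edgeR adjusted p = 0.072). Of all 22038 genes, NRP2 had the second smallest p-value, after METTL3. It passed with DESeq2 (adjusted p = 2.66e-16) and in 3 further fits with edgeR, and its adjusted p ranged up to 0.904 when vector replicate 3 was left out, whereas its log2 fold change stayed between 1.05 and 1.10 in all 14 alternatives. Within replicate numbers 1, 2 and 3 the log2 difference was 0.97, 1.13 and 1.07. Reads were counted per gene, so the membrane-bound and soluble forms of NRP2 cannot be told apart. Of its exonic bases, 1.06% lie opposite an exon of a long noncoding RNA.

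NRP1 (ENSG00000099250.18, chromosome 10, 33177492 to 33336262), the co-receptor of VEGFA and KDR and receptor of SEMA3A, had a small fold change of the opposite sign to NRP2. It was at 139.5, 192.6 and 175.1 CPM with METTL3 and at 138.1, 220.0 and 215.2 CPM with the vector. The groups overlapped, and replicate 1 was the lowest library of each group. The log2 fold change of NRP1 was -0.18 (SE 0.201, edgeR adjusted p = 0.806). Without vector replicate 1 it was -0.36 (adjusted p = 0.252), and in replicates 2 and 3 of each group it was -0.24 and passed (edgeR adjusted p = 0.00911). Over all 14 alternatives it lay between -0.36 and -0.04, with adjusted p-values up to 0.98. Opposite exons of another gene cover 4.87% of NRP1 exonic bases.

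The balance of the 2 neuropilins did not overlap between the groups. Per length, NRP2 was 58.9%, 51.8% and 52.5% of the summed neuropilin TPM with METTL3 and 42.6%, 30.1% and 30.0% with the vector. NRP2 was thus the more abundant neuropilin in all METTL3-overexpressing libraries and NRP1 in all vector libraries. The NRP1 share was 45.6% ± 3.91 with METTL3 and 65.8% ± 7.22 with the vector (SD, n = 3 each), a difference of -20.2 percentage points (two-sided p = 0.1 in an exact permutation test, which cannot go lower with 3 libraries per group). This share does not depend on the scaling of libraries, and with canonical lengths the difference was also -20.2 points.

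Among the ligands, VEGFA (ENSG00000112715.25, chromosome 6, 43770184 to 43786487), the main angiogenic ligand and a target of hypoxia-inducible factors, was at 140.0, 88.5 and 89.1 CPM with METTL3 and at 67.2, 75.2 and 70.6 CPM with the vector. The groups did not overlap, but METTL3-overexpressing replicate 1 was far above its 2 group members. The means were 105.8 ± 29.6 and 71.0 ± 3.99 CPM (SD, n = 3 each), a fold of 1.49. The log2 fold change was 0.58 (SE 0.186, edgeR adjusted p = 0.517), and by p-value VEGFA ranked 588 of all genes. The size rested on replicate 1, since the log2 difference was 1.06 within replicate number 1 and 0.24 and 0.33 within numbers 2 and 3. Without METTL3-overexpressing replicate 1 the log2 fold change was 0.34 (adjusted p = 0.751), and in replicates 2 and 3 of each group it was 0.28 and passed (edgeR adjusted p = 0.00263). Over all 14 alternatives it lay between 0.28 and 0.71, with adjusted p-values up to 0.904. Splice forms of VEGFA, which differ in their binding to heparan sulfate, are pooled in these counts. Exons on the opposite strand cover 1.3% of its exonic bases.

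VEGFB (ENSG00000173511.10, chromosome 11, 64234584 to 64239264), a ligand of FLT1 and NRP1, was the most abundant ligand per length when all annotated exons set the length. With canonical lengths its mean was also above that of VEGFA, at 79.5 against 58.7 TPM. The highest VEGFA library then reached 97.5 TPM, however, and the highest VEGFB library 91.2 TPM. VEGFB was at 62.1, 68.1 and 62.4 CPM with METTL3 and at 42.1, 61.6 and 64.5 CPM with the vector. The groups overlapped, and only vector replicate 1 lay apart. Its log2 fold change was 0.20 (SE 0.166, edgeR adjusted p = 0.738), and it was 0.03 without vector replicate 1 (adjusted p = 0.902). Its adjusted p-values over 14 alternatives lay between 0.571 and 0.904.

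PGF (placental growth factor, ENSG00000119630.14, chromosome 14, 74941834 to 74955626), another FLT1 ligand, was at 12.9, 19.96 and 18.7 CPM with METTL3 and at 16.2, 27.8 and 27.9 CPM with the vector. It was lower with METTL3 within each replicate number, by -0.32, -0.48 and -0.58 on the log2 scale, although the groups overlapped, with vector replicate 1 among the METTL3-overexpressing libraries. The log2 fold change of PGF was -0.48 (SE 0.245, edgeR adjusted p = 0.632). With the replicate number as a block, the unadjusted p was 0.00578 and the adjusted p was 0.264. In replicates 2 and 3 of each group the log2 fold change was -0.53 and passed (edgeR adjusted p = 8.85e-05). Over all 14 alternatives it lay between -0.70 and -0.29, with adjusted p-values up to 0.904. VEGFA made up 17.1% ± 4.56 of the summed ligand TPM with METTL3 and 13.4% ± 2.42 with the vector (SD, n = 3 each), and the shares overlapped (two-sided p = 0.3 in an exact permutation test). With canonical lengths the VEGFA shares were 38.9% and 31.0% (p = 0.3 in the same exact test).

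SEMA3C (ENSG00000075223.14, chromosome 7, 80742538 to 80922359), a secreted semaphorin that signals through neuropilins and plexins, did not pass in any fit. It was at 111.6, 112.8 and 105.2 CPM with METTL3 and at 92.3, 108.2 and 109.2 CPM with the vector. Its log2 fold change was 0.09 (SE 0.113, edgeR adjusted p = 0.825) and 0.00 in replicates 2 and 3 of each group (adjusted p = 0.983), and over 14 alternatives its adjusted p-values lay between 0.749 and 0.983. The groups overlapped, and vector replicate 1 was the lowest library.

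Vector replicate 1 was the lowest of the 6 libraries for VEGFA, VEGFB, NRP1 and SEMA3C, and it was the lowest for 24.7% of all tested genes. It was also the highest library for 30.1% of all genes. When only replicates 2 and 3 of each group were used, 7 members were tested, FLT1 among them, and 4 passed edgeR's test. NRP2 and VEGFA were higher and NRP1 and PGF lower, against 15.2% of all tested genes called in either direction (3362 of 22046). Of all tested genes 6.66% were called higher and 8.59% lower. That choice was known from earlier results of these data, and it rests on 2 libraries per group. The SEs in this fit were nearly the same for VEGFA (0.0547), NRP2 (0.0549), SEMA3C (0.0552) and NRP1 (0.0571). They thus follow a spread pooled over genes more than the spread of each gene between its own libraries.

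**Figure D3:**
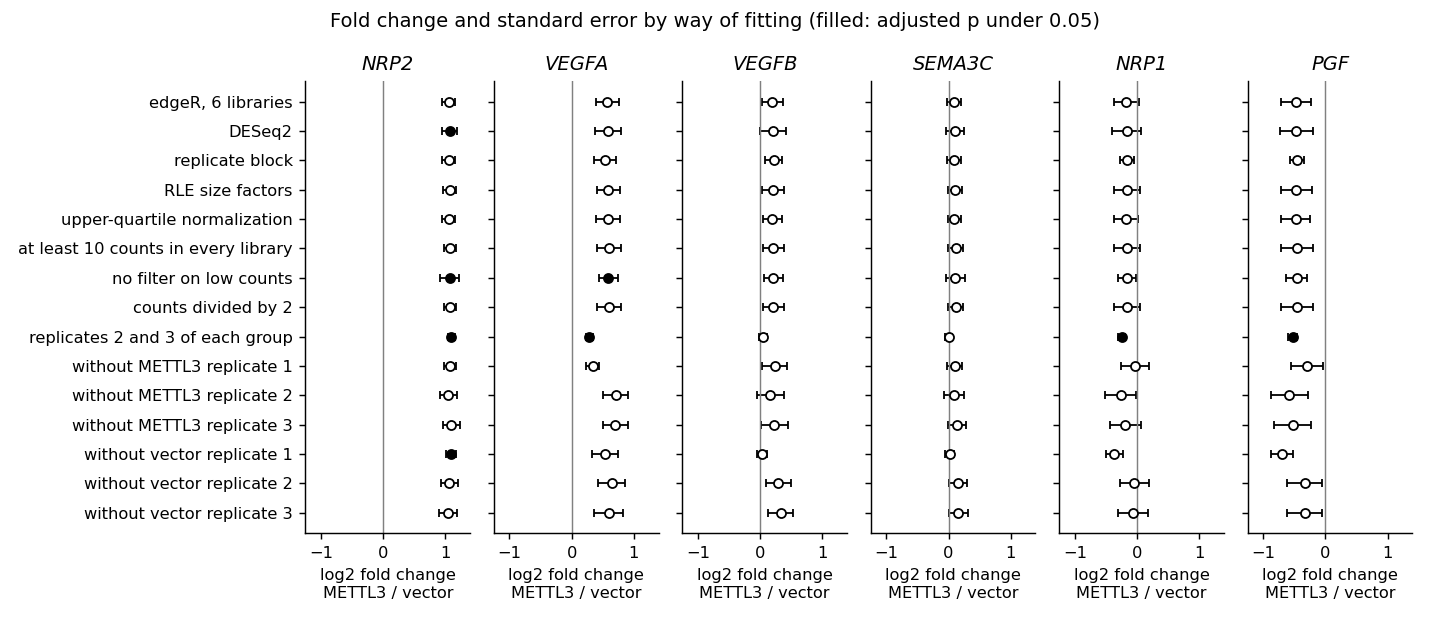
Log2 fold change of METTL3-overexpressing over vector libraries (horizontal axis) with its standard error for the 6 tested members, under each way of fitting (rows). Filled points had an adjusted p-value under 0.05. NRP2 stays between 1.05 and 1.10 throughout, and VEGFA ranges from 0.28 to 0.71.

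For the other genes of the pathway, none of 112 tested genes from 5 lists passed in edgeR's test on all 6 libraries (0% of all genes did). At an unadjusted p-value under 0.05, 9 were higher and 2 lower, 9.82% against 8.3% of all genes, and DESeq2 called 0 of them.

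The class 3 semaphorins and plexins are the partners of the neuropilins, and 13 of 15 were expressed at 1 TPM or more in all libraries. SEMA3D and PLXNA4 were the exceptions. Of 14 tested genes, 0 passed and 2 had an unadjusted p-value under 0.05, both higher, with a median log2 fold change of 0.17. PLXNB2, a receptor of class 4 semaphorins, was the most abundant per length, at 993.2, 663.2 and 598.0 CPM with METTL3 and at 394.8, 523.5 and 457.2 CPM with the vector. The groups did not overlap, and the log2 fold change was 0.71 (SE 0.208, edgeR adjusted p = 0.454). PLXND1, a receptor of SEMA3E and SEMA3C, was at 58.9, 60.8 and 53.3 CPM with METTL3 and 25.1, 48.6 and 42.2 CPM with the vector (log2 fold change 0.58, edgeR adjusted p = 0.565). Both were highest in relation to the vector within replicate number 1. In replicates 2 and 3 of each group, PLXNB2 and PLXND1 passed as higher and SEMA3A, SEMA3F and PLXNB3 as lower, 5 of 14 genes against 15.2% of all tested genes. SEMA3F, a ligand of NRP2, had a log2 fold change of -0.49 there and -0.21 on all 6 libraries. Without vector replicate 1 the log2 fold change of PLXND1 was 0.34.

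**Figure D4:**
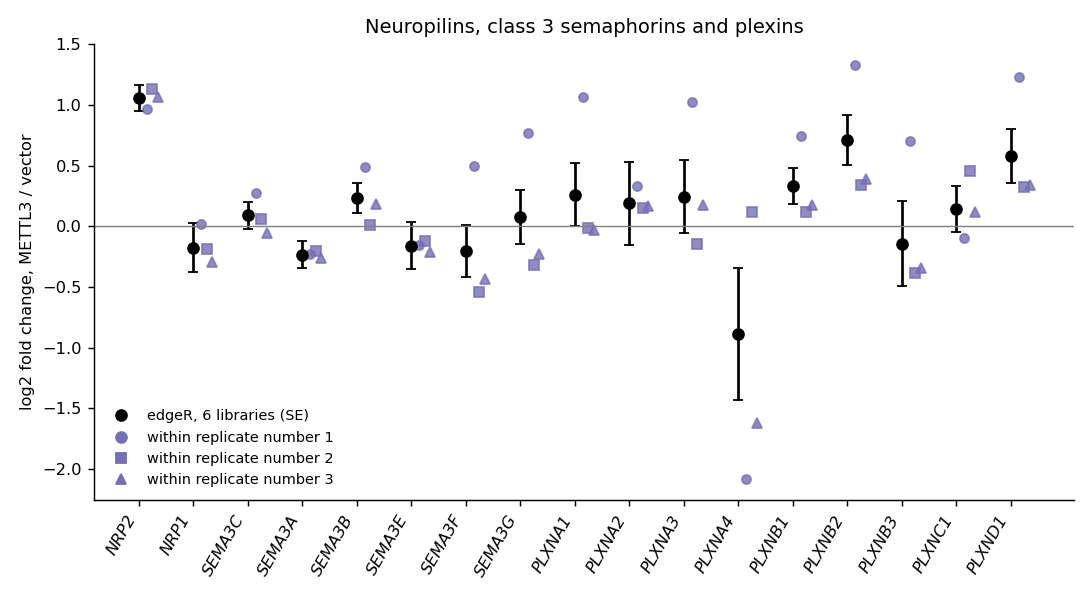
Log2 fold change of METTL3-overexpressing over vector libraries (vertical axis) for the neuropilins, SEMA3C and the 14 tested class 3 semaphorin and plexin genes. Black points with bars are edgeR's values and standard errors on 6 libraries, and purple points are the differences within replicate numbers 1, 2 and 3. The 3 differences of NRP2 lie between 0.97 and 1.13, whereas SEMA3F, SEMA3G, PLXNA1 and PLXNB3 are positive only within replicate number 1.

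Genes that process VEGFC or hold ligands in the matrix were mostly expressed, at 1 TPM or more for 13 of 17. VEGFD (0.0986 to 0.544 TPM) and CCBE1, a cofactor of VEGFC cleavage, were not among them. VEGFD is itself a VEGF ligand that was placed in this list. It was not 1 of the 10 genes and did not enter the ligand shares above. Of 16 tested genes 0 passed, and at an unadjusted p-value under 0.05 there were 3 higher and 1 lower, with a median log2 fold change of 0.05. HSPG2, the basement membrane proteoglycan perlecan, was at 657.2, 549.4 and 405.9 CPM with METTL3 and 183.1, 404.4 and 331.6 CPM with the vector (log2 fold change 0.81, edgeR adjusted p = 0.555). ADAMTS2, a procollagen protease, was under 0.5 CPM in each library (log2 fold change -1.27, adjusted p = 0.547). SDC4, a heparan sulfate proteoglycan, was the most abundant of the list and had a log2 fold change of -0.06 (adjusted p = 0.878). The log2 fold change of HSPG2 was 0.38 in replicates 2 and 3 of each group (edgeR adjusted p = 0.418).

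Of 16 genes that regulate the VEGFA transcript, 0 passed and 0 had an unadjusted p-value under 0.05, with a median log2 fold change of 0.10. EPAS1, the hypoxia-inducible factor HIF-2α, was at 230.3, 258.1 and 242.5 CPM with METTL3 and 127.7, 212.8 and 203.3 CPM with the vector (log2 fold change 0.43, edgeR adjusted p = 0.606). EGLN3, a prolyl hydroxylase induced by hypoxia, was at 95.7, 47.6 and 47.2 CPM with METTL3 and 55.4, 30.3 and 33.3 CPM with the vector (log2 fold change 0.68, adjusted p = 0.621). EGLN3 was thus highest in METTL3-overexpressing replicate 1, the library in which VEGFA was also highest. That library was the highest for 25.1% of all tested genes. ATF4, the stress transcription factor and most abundant of the list, had a log2 fold change of 0.08 (adjusted p = 0.892). In replicates 2 and 3 of each group, EPAS1, EGLN3 and SP1 passed as higher and EGLN1 as lower, 4 of 16 genes against 15.2% of all tested genes. Without METTL3-overexpressing replicate 1 the log2 fold change of EGLN3 was 0.28, and without vector replicate 1 that of EPAS1 was 0.23.

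Of 56 genes that act downstream of VEGFR2, many of which serve other receptors too, 52 were expressed. Of 54 tested genes, 0 passed, and at an unadjusted p-value under 0.05 there were 3 higher and 1 lower. PTPRJ, a receptor phosphatase, had a log2 fold change of 0.34 (edgeR adjusted p = 0.546), and the groups did not overlap. HSPB1, the heat shock protein HSP27, was the most abundant, with a log2 fold change of 0.05 (adjusted p = 0.913). The median log2 fold change of the list was 0.03. In replicates 2 and 3 of each group, 4 of the list were higher and 8 lower at an adjusted p-value under 0.05, where 6.66% of all tested genes were called higher and 8.59% lower.

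Of the 14 PDGF and angiopoietin relatives, 6 were expressed at 1 TPM or more in all libraries. PDGFC, PDGFB, PDGFA and PDGFD had means of 56.1, 33.9, 30.2 and 16.9 TPM. PDGFRA, KIT, FLT3 and TEK had means under 0.2 TPM, whereas TIE1 had a mean of 6.88 TPM and PDGFRB of 1.06 TPM. Of 12 tested genes, 0 passed, and 1 had an unadjusted p-value under 0.05, with a median log2 fold change of -0.11. That gene was PDGFB, at 32.5, 35.6 and 35.4 CPM with METTL3 and 22.6, 28.1 and 29.6 CPM with the vector (log2 fold change 0.36, edgeR adjusted p = 0.562). PDGFC had a log2 fold change of 0.16 (adjusted p = 0.755) and ANGPT1, a ligand of TEK, of -0.77 (adjusted p = 0.645). PDGFC was at 0.024 without vector replicate 1, and ANGPT1 at -0.40 without METTL3-overexpressing replicate 1.

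Markers of other cell types were examined because VEGF receptors belong to endothelium. All 8 epithelial markers were expressed, with a summed level of 8144 to 9401 TPM with METTL3 and 6426 to 9140 TPM with the vector, and KRT8 was the most abundant. The summed endothelial list lay at 91.9 to 108.5 TPM with METTL3 and 70.7 to 117.2 TPM with the vector, and 6 of 14 markers were expressed, led by EGFL7 (log2 fold change -0.18, edgeR adjusted p = 0.666). Among the low markers of this list, picked after their values were seen, CDH5, VWF, ERG and EMCN had means of 0.239, 0.0748, 0.0147 and 0.00414 TPM. EGFL7, ESAM, ROBO4 and TIE1 of the same list had higher means. Of 10 tested endothelial markers, 2 did not overlap between the groups in CPM. These were CDH5 and CLDN5, both higher with METTL3, against 8.47% of all tested genes in that direction. PECAM1 was at 21.4, 9.30 and 7.45 CPM with METTL3 and 7.74, 5.72 and 4.67 CPM with the vector (log2 fold change 1.08, edgeR adjusted p = 0.56), and CLDN5 had a log2 fold change of 0.54 (adjusted p = 0.632). The fibroblast and pericyte list, with 1 of 8 markers expressed, summed to 9.89 to 11.2 TPM with METTL3 and 5.11 to 11.1 TPM with the vector, with DCN and COL1A2 under 0.03 TPM in each library. COL1A1 and COL3A1 had log2 fold changes of 0.30 (adjusted p = 0.748) and -0.49 (adjusted p = 0.792). The leukocyte list, with 2 of 8 markers expressed, summed to 93.7 to 132.0 TPM with METTL3 and 107.4 to 169.6 TPM with the vector, nearly all of it LYZ and CD14, with PTPRC under 0.03 TPM. LYZ had a log2 fold change of -0.61 (adjusted p = 0.539) and CD79A of -0.90 (edgeR adjusted p = 0.61). Of the epithelial markers, CDH1, which encodes E-cadherin, was at 439.1, 357.8 and 345.8 CPM with METTL3 and 201.1, 184.0 and 189.4 CPM with the vector (log2 fold change 0.99, adjusted p = 0.17), PAX8 had a log2 fold change of 0.42 (adjusted p = 0.615) and KRT8 of 0.04 (edgeR adjusted p = 0.964). None of these marker genes passed with edgeR on all 6 libraries. CDH1 passed in the same 4 fits as NRP2, with DESeq2 (adjusted p = 1.47e-08), with low-count genes kept (edgeR adjusted p = 4.38e-08), in replicates 2 and 3 of each group (7.46e-08) and without vector replicate 1 (0.0205). With low-count genes kept, PECAM1 (edgeR adjusted p = 1.77e-05) and LYZ (0.0192) passed too, and LYZ also passed without vector replicate 1 (0.0341). In replicates 2 and 3 of each group, 7 of the 8 epithelial markers passed as higher, against 6.66% of all tested genes called higher and 15.2% called in either direction. PECAM1 (0.69), EGFL7 (-0.27) and LYZ (-0.92) passed in that fit as well. Without METTL3-overexpressing replicate 1 the log2 fold change was 0.50 for PECAM1 and 0.26 for PAX8, and without vector replicate 1 it was 0.32 for CLDN5, -0.55 for CD79A and 0.02 for COL1A1. The part of these markers in the results for NRP2 and VEGFA was not tested.

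Transcripts whose centred log2 CPM over the 6 libraries lay closest to a member were sought among 10026 genes with a mean of 10 CPM or more. Closest to VEGFA were DDR1, KLF4 and SLC52A3, with a root mean square difference of 0.0363, 0.0424 and 0.0452, against a spread of 0.352 for VEGFA itself. Closest to NRP1 were STXBP5, GOLIM4 and BACH1 (0.0376, 0.0409 and 0.0456, against 0.27). For NRP2, which was added after its values were seen, DUSP4 was closest (0.0494, against 0.53), at 109.0, 102.6 and 100.3 CPM with METTL3 and 55.9, 51.0 and 49.2 CPM with the vector. METTL3 itself came next (0.0982), followed by COBL (0.1). The likeness rests on 6 libraries and is a description only.

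METTL3 methylates adenosines within short motifs, of which GGACT is a common form. The canonical NRP2 transcript holds 10 copies of GGACT in 6644 bases, or 1.51 per kilobase, above 78.8% of 14873 tested protein-coding genes. NRP1 holds 7 in 5640 bases (1.24 per kilobase), VEGFA 3 in 3609 bases (0.831 per kilobase) and VEGFB 2 in 1805 bases (1.11 per kilobase). PGF holds 0 in 1740 bases, whereas 91.4% of these transcripts hold at least 1. The median over these genes was 0.943 per kilobase. Methylation was not measured in these libraries.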

How the data were processed

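RNA-seq libraries of 3 METTL3-overexpressing and 3 vector OVCAR5 samples were analysed. According to the paper's methods, reads were aligned to hg38 with hisat2 and counted per gene with Subread, and the submitters' processing notes also name fastp and featureCounts. The authors deposited raw counts of 60649 gene rows, whole numbers without normalization. The labels describe paired-end reads from a stranded TruSeq kit and the methods single-end reads from an NEBNext kit. Versions, the annotation release, the strand setting and the handling of multimapping reads were not given in the sources used here. Total counts ranged from 96633925 to 125463386 per library, and intervals and floors cover counting error only.

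Identifiers were matched without version to GENCODE release 44 (60463 rows named), whose merged exons gave lengths for TPM. In R 4.3.3, the 22038 genes passing filterByExpr of edgeR 4.0.16 were scaled by TMM and tested by quasi-likelihood (robust glmQLFit, then glmQLFTest), and p-values were adjusted by Benjamini-Hochberg. Each SE was obtained from the log2 fold change and the F statistic. DESeq2 1.42.0 was an alternative, as were other scalings, filters, counts divided by 2, a replicate block, replicates 2 and 3 only, and each library left out in turn. On simulated counts with 200 genes changed by a fold of 2, edgeR recovered 45.5% of them among 21575 genes (9% of its calls were unchanged genes) and DESeq2 60.5% (22.9%). The simulated counts were drawn independently for each gene, with no library standing apart as replicate 1 did. These rates may therefore not hold for the present libraries.

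The members and gene lists were chosen with earlier results of these data known. Named genes are the members, METTL3, and from each further list the most abundant gene and the 2 genes with the smallest p-values. VEGFA and NRP1, the neuropilin with the higher mean TPM, also get their 3 nearest patterns. Other genes named in a list were chosen after their values were seen, and a gene that the rule selects is not reported here. Replicate numbers are shared between the groups, and deviations from the group mean correlated between libraries of the same number at 0.33, 0.12 and 0.17, each over the minimum of 0.1. This meets the minimum for pairing by number, on the values and not the labels. The tests given are unpaired unless the replicate block is named. Libraries numbered 2 and 3 also correlated across numbers, at 0.13 and 0.21. These values thus do not single out pairing by number for replicates 2 and 3.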

Additional observations from a re-analysis of the deposited data

How the results depend on the processing

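The direction of all 6 tested members was the same in the 14 alternative fits, but the number that passed was not. On all 6 libraries edgeR called 0 genes (1830 at an unadjusted p-value under 0.05), DESeq2 called 280, edgeR with low-count genes kept called 560, and 3362 were called in replicates 2 and 3 of each group. The members called were 0, 1, 2 and 4 in these fits. Of the 118 genes in the pathway lists, 0 were called on all 6 libraries with the filter. Without a filter 6 were called, against 1.3% of all tested genes, and in replicates 2 and 3 there were 30, against 15.2%. Leaving out 1 library gave 0 to 367 genes, 0 to 1 members and 0 to 1 pathway genes. Each highest count came from the fit without vector replicate 1, where 1.62% of all tested genes were called.

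NRP2 passed with a log2 fold change of 1.07 in DESeq2, 1.08 without a filter (edgeR adjusted p = 3.31e-09) and 1.10 in replicates 2 and 3 (adjusted p = 2.59e-08), and its values with 1 library left out were 1.05 to 1.10, of which the fit without vector replicate 1 passed (adjusted p = 0.00708). METTL3 passed in the same fits, at 1.18, 1.18 and 1.28, with 1.13 to 1.23 when 1 library was left out. VEGFA passed at 0.59 without a filter (adjusted p = 0.0114) and at 0.28 in replicates 2 and 3, where PGF (-0.53) and NRP1 (-0.24) passed too. With the replicate number as a block, 0 genes passed, the log2 fold change of NRP2 was 1.05 (edgeR adjusted p = 0.0941) and the block changed no call. The cause of these differences was not tested.

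Some small differences changed sign. In replicates 2 and 3, HSPB1 was at -0.057 and PDGFC at -0.028. With 1 library left out, ATF4 ranged from -0.015 to 0.22, KRT8 from -0.054 to 0.31 and COL3A1 from -0.81 to 0.13. Within single replicate numbers, VEGFB was at -0.049 in number 3, NRP1 at 0.014 in number 1 and SEMA3C at -0.053 in number 3. The number of expressed members stayed at 6 with limits of 0.5 or 2 TPM, with other gene lengths and without any 1 library. The canonical lengths, the differences within replicate numbers and the nearest patterns of NRP2 were chosen after seeing the data. Depth limits what can be said of FLT1, KDR, FLT4 and VEGFC, which were at 0 counts in 1 or more libraries.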

Other observations

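The 10 tested genes within 1 megabase of NRP2 on chromosome 2 were listed after its values were seen. Of these, INO80D was the only gene whose CPM did not overlap between the groups, as was the case for 17.4% of all tested genes. It was at 24.1, 22.9 and 20.3 CPM with METTL3 and 18.6, 17.1 and 18.1 CPM with the vector (log2 fold change 0.32, SE 0.122, edgeR adjusted p = 0.565). ADAM23, an adhesion gene, had a log2 fold change of -0.52 (edgeR adjusted p = 0.687). The paper reports ADAM23 as downregulated in METTL3-overexpressing cells. With the vector ADAM23 was at 6.41, 18.6 and 17.7 CPM. All METTL3-overexpressing libraries lay above vector replicate 1 and below vector replicates 2 and 3. The overlap of the groups thus rested on vector replicate 1, and no fit without it is given here for ADAM23. PARD3B, the nearest protein-coding gene upstream, had a log2 fold change of -0.15 (adjusted p = 0.844). NDUFS1, a subunit of respiratory complex I, had a log2 fold change of -0.05 (adjusted p = 0.924). The long noncoding RNA ENSG00000225216, which lies within NRP2 on the opposite strand, did not exceed 0.328 CPM and had a log2 fold change of 0.95 (edgeR adjusted p = 0.725). None of the 10 passed with edgeR on 6 libraries.

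Several genes known from endothelium were measured in these epithelial cells without the receptors. The means over the 6 libraries were 50.4 TPM for EGFL7, 24.0 TPM for ESAM, 7.64 TPM for ROBO4 and 6.88 TPM for TIE1, whereas KDR had a mean of 0.00641 TPM. ROBO4 and TIE1 ranged from 2.24 to 10.8 and from 2.16 to 9.67 TPM over the libraries.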
